A study of Mus musculus with 24 samples.

Results

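The Schlafen genes of the mouse were followed through RNA-seq libraries of mouse embryonic fibroblasts (MEFs) that had lost increasing numbers of the enzymes that methylate lysine 9 of histone H3 (H3K9). The family was taken as 7 genes, Slfn1, Slfn2, Slfn3, Slfn4, Slfn5, Slfn8 and Slfn9, among 47937 gene entries of the count table. It was chosen by the measured values of Slfn4 in WT and in 6KO1, so the contrast of 6KO1 with WT is given below as a description without a test. Slfn4 was tested only between conditions that include neither of them.

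H3K9 methylation marks silent chromatin in mammalian cells. Of the 6 SET-domain methyltransferases that lay it down, Suv39h1 and Suv39h2 form one pair. G9a and Glp, encoded by Ehmt2 and Ehmt1, form another, and the pair of Eset1 and Eset2 is encoded by Setdb1 and Setdb2. Schlafen genes are known from lymphoid and myeloid cells, and many of them respond to interferon. Slfn1 and Slfn2 encode the short proteins of the family, Slfn3 and Slfn4 proteins of intermediate length, and Slfn5, Slfn8 and Slfn9 long proteins with a helicase-like domain. Slfn1 is known to slow the growth of thymocytes, Slfn2 to keep T cells quiescent, and Slfn4 to be induced when macrophages are activated.

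The 24 libraries fall into 8 conditions with 3 biological replicates each. WT cells are a single clone with floxed Eset1 and a Cre recombinase that 4-hydroxytamoxifen (4-OHT) activates, and they were left without 4-OHT. E1 is the same clone after 4-OHT, which removes part of Eset1. For E1 S1S2, Suv39h1 and Suv39h2 were mutated by CRISPR/Cas9 in the floxed line. The clone of 6KO1 was made from the E1 S1S2 clone by mutating Eset2, G9a and Glp as well. In the second series of clones, E2 carries a mutation of Eset2 in the floxed line without 4-OHT, and E1E2 is this clone after 4-OHT. E1E2 G9Gl has lost G9a and Glp in addition, and 6KO2 was made from its clone by mutating Suv39h1 and Suv39h2. All CRISPR mutations were made while Eset1 was still intact. Cells of E1 S1S2, 6KO1, E1E2 G9Gl and 6KO2 were then given 4-OHT to delete Eset1 before they were sampled. Both 6KO conditions therefore lack all 6 enzymes, reached in a different order. Each CRISPR mutant is 1 clone, which later received another inducible Cre construct with a puromycin resistance gene, so that clone and genotype cannot be told apart and p-values measure the spread between cultures of a clone. The treatment label names 4-OHT for all samples, and the sample titles, which mark WT and E2 as controls, were followed here. No sample that kept Eset1 was given 4-OHT. Between treated and untreated conditions, loss of Eset1 therefore cannot be told apart from 4-OHT exposure and Cre activity.

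Libraries held 24737307 to 37419816 counts, of which 19541909 to 31489070 lay on genes. Transcripts of 4 targeted genes, Setdb2, Suv39h1, Ehmt1 and Ehmt2, were lower in every library mutant for them than in every other library, at 9.39 to 16.9 against 18.7 to 32.5 CPM for Setdb2. Setdb1 (25.9 to 50.1 against 40.2 to 63.7 CPM) and Suv39h2 (18.8 to 73.1 against 14.0 to 43.2 CPM) overlapped between mutant and other libraries. A small deletion or frameshift need not remove the transcript, so the level checks the labels only in part. CPM are the usual normalized read counts, here scaled by library size and TMM factors, and levels of different genes are compared per kb of exon. In bulk RNA, fewer expressing cells and less RNA per cell cannot be told apart.

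All 7 members lie on chromosome 11 of GRCm38 within 263806 bases. In genome order they are Slfn5 (chr11:82951349-82964840, plus strand), Slfn9 (chr11:82978390-82991830, minus), Slfn8 (chr11:83002158-83020810, minus), Slfn2 (chr11:83065112-83070678, plus), Slfn1 (chr11:83116849-83122670, plus), Slfn4 (chr11:83175186-83190216, plus) and Slfn3 (chr11:83191330-83215154, plus). All are annotated as protein coding. Slfn3 starts 1113 bases after the end of Slfn4. The transcribed pseudogene Slfn10-ps (chr11:83028130-83040042, minus) lies between Slfn8 and Slfn2. Slfn14 (chr11:83275110-83286726, minus) lies beyond Slfn3.

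The 250 bases before the RefSeq transcription start (GRCm38.p6) are shown for 2 pairs of neighbours whose levels are set side by side below: Slfn9 and Slfn8, which have similar promoters, and Slfn4 and Slfn3, which do not. Capitals mark matches to GAAANNGAAA on either strand, a core of the interferon-stimulated response element (ISRE), which the factors that act downstream of type I interferon bind.
Slfn9: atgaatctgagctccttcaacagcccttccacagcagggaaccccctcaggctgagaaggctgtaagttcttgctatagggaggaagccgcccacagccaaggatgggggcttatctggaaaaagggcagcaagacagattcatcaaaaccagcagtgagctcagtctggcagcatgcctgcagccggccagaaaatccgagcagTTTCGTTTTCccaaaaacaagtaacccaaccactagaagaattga
Slfn8: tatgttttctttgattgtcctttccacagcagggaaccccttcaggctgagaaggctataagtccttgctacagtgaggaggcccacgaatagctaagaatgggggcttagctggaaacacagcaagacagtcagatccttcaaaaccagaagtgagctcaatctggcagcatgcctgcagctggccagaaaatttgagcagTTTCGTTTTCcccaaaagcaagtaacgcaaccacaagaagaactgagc
Slfn4: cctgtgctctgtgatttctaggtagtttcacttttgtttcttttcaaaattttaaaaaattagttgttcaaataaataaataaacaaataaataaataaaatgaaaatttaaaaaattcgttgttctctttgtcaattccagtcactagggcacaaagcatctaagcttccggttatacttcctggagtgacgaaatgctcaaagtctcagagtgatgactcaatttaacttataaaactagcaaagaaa
Slfn3: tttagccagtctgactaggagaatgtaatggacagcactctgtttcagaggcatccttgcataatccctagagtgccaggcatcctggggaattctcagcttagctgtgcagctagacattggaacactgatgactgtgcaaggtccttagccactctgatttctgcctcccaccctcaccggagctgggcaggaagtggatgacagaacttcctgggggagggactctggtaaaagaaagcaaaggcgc
These windows are chr11:82991831-82992080 (minus strand), chr11:83020811-83021060 (minus), chr11:83174936-83175185 (plus) and chr11:83191080-83191329 (plus). The Slfn9 and Slfn8 windows were identical at 80.2% of aligned positions in a global alignment, while all other pairs among the windows of the members and Slfn14 lay between 45.5% and 53.4%.

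Slfn9 and Slfn8 each hold 1 match to GAAANNGAAA on the opposite strand. It lies at positions -45 to -36 from the start in Slfn9 and at -48 to -39 in Slfn8. Slfn8 has another RefSeq start, from which the same match lies at -136 to -127. Slfn5 holds 1 match further upstream, at -155 to -146. No match was found in the windows of Slfn1, Slfn2, Slfn3 and Slfn4. Of 32851 promoter windows of this length, 2.98% hold a match. A match is a description of the letters and not evidence of binding.

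In WT, Slfn9 was the 1 member with a substantial level, with 1235, 1680 and 1403 counts in the 3 libraries. This is 9.40 ± 0.725 CPM per kb (SD, n = 3), and 99.8% to 99.9% of all counts on the family. Slfn8 had 1, 1 and 2 counts, Slfn3 1, 1 and 0, and Slfn2 0, 1 and 0. Slfn1, Slfn4 and Slfn5 had no count in any WT library. A summed count of 0 allows up to 3 counts, and intervals and limits of this kind cover counting error only. The libraries are therefore near the detection limit for 6 of 7 members in WT, and folds against WT are given as lower bounds or with exact counting intervals.

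**Figure D1:**
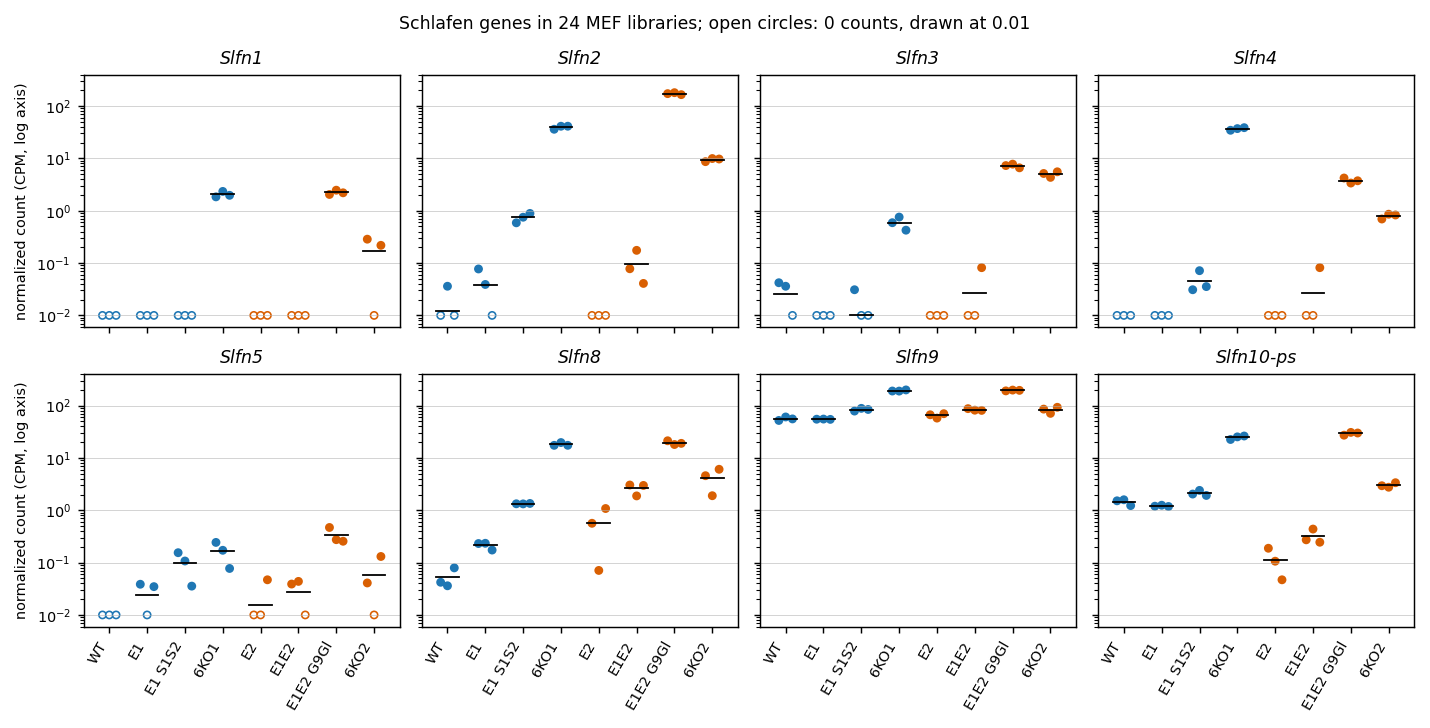
Normalized count (CPM, log axis) of the 7 Schlafen members and the pseudogene Slfn10-ps in each of the 24 libraries, by condition. Points are libraries (blue for the first series of clones, orange for the second), black lines are means of 3 libraries, and open circles are libraries with 0 counts, drawn at 0.01. Slfn9 lies above 50 CPM in all conditions, while Slfn1, Slfn2, Slfn4 and Slfn8 are near 0 in WT, E1 and E2 and higher in 6KO1 and E1E2 G9Gl. Slfn5 stays below 1 CPM in all libraries and Slfn3 in all but those of E1E2 G9Gl and 6KO2.

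The values that led to the choice of the family are those of Slfn4 in 6KO1. It had 992, 1078 and 1000 counts there (36.7 ± 2.11 CPM, SD, n = 3) and 0 counts in all 3 WT libraries, which makes it at least 937-fold higher against a floor of 3 counts over the WT libraries. In the same contrast Slfn2 had 1037, 1196 and 1066 counts against a WT sum of 1, a ratio of 3021 with a counting interval of 542 to 1.194e+05. The WT count was in library 2, without which the value falls from 11.56 to a lower bound of 9.33 on the log2 scale. Slfn1 had 53, 68 and 51 counts, at least 52.5-fold above WT, and Slfn8 had 501, 572 and 451, a ratio of 349 (136 to 1282). Slfn3 stayed low, with 17, 22 and 11 counts and a ratio of 22.9 (6.01 to 194). Slfn9, the member already transcribed in WT, was at 193 ± 5.55 CPM in 6KO1 and 56.1 ± 4.32 CPM in WT, a ratio of 3.42 (3.31 to 3.54). Slfn5 summed to 14 counts in 6KO1.

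The parent clone of 6KO1 had almost none of this transcription. Slfn4 had 1, 2 and 1 counts in E1 S1S2, a ratio of 810 (316 to 2976) between 6KO1 and its parent. Slfn2 had 19, 21 and 25 counts there (ratio 53.6, 41.9 to 69.6), Slfn8 43, 37 and 38 (ratio 13.6, 11.3 to 16.6), and Slfn1 none. These ratios rest on the 6KO1 libraries and carry no test.

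Every other comparison was tested with edgeR across 18565 genes that passed the filter on low counts, and calls required both a 2-fold difference or more and an adjusted p not above 0.01. Slfn5, with at most 11 counts in a library, did not pass the filter. Slfn1, Slfn3 and Slfn4 passed it only through 6KO1, E1E2 G9Gl or 6KO2. A difference between those conditions and the rest was thus built into their entry. Slfn2 and Slfn8, with at most 2 counts in a WT library and 6 in an E1 library, likewise passed through conditions where they are higher. Counts of called members below are therefore not read against the share of all genes. A member counts as tested below where it passed and summed to more than 3 counts in at least 1 of the conditions compared.

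Neither E1 nor E2 gave a call of a member against WT, but Slfn8 was at 10.0 times its WT level in E2 (3.6 to 38.7) and 4.06 times in E1 (1.32 to 16.6), on few counts. In E1 against WT, 0 of 2 tested members were called by edgeR, 0 had an unadjusted p under 0.05 and 0 were called by DESeq2, beside 4.26% of all genes tested. Slfn9 had 1423, 1417 and 1569 counts in E1, a log2 fold change of -0.03 ± 0.08 (SE). Slfn8 had 6, 6 and 5 counts in E1, a log2 fold change of 1.92 ± 1.16 (adjusted p = 0.275). In E2 against WT, 0 of 2 members were called by edgeR, beside 6.11% of all genes. Both had an unadjusted p under 0.05, and DESeq2 called 1, Slfn8. Slfn8 had 12, 2 and 23 counts in E2, so that its libraries spread over an order of magnitude and library 2 lay at the WT level. Its log2 fold change was 3.23 ± 0.96 (adjusted p = 0.0105), 3.86 (adjusted p = 0.000805) without library 2 and 2.35 (adjusted p = 0.103) without library 3.

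Slfn2 and Slfn8 were higher in the clone that lacks Suv39h1 and Suv39h2 on top of Eset1 than in E1. In E1 S1S2 against E1, which shares no library with the contrast that chose the family, 2 of 4 tested members were called, both higher, beside 8.06% of all genes. Both passed the filter through conditions where they are higher than in E1, so the count is not read against that share. Slfn8 rose from 6, 6 and 5 counts to 43, 37 and 38, and the groups did not overlap (log2 fold change 2.63 ± 0.56, adjusted p = 0.000528). Slfn2 rose from 2, 1 and 0 counts to 19, 21 and 25, a ratio of 19.7 with a counting interval of 6.44 to 97.9 (adjusted p = 3.09e-07). Its fitted log2 fold change of 4.13 became 4.99 without E1 library 1, which held 2 of the 3 E1 counts. Slfn9 was 1.52-fold higher (log2 fold change 0.61 ± 0.08, adjusted p = 1.46e-06), under the fold that a call needs. Slfn4 did not pass, at 4 counts against 0 (adjusted p = 0.0516). Against WT, 2 of 3 tested members of E1 S1S2 were called, again Slfn2 and Slfn8, beside 11.8% of all genes and with the same limit.

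When the Eset2 mutant was given 4-OHT to delete Eset1, Slfn8 was the 1 member called. In E1E2 against E2, 1 of 3 members was called, beside 2.97% of all genes. Slfn8 went from 12, 2 and 23 counts to 78, 43 and 73, without overlap (log2 fold change 2.31 ± 0.44, adjusted p = 0.000466). In a fit of these 6 libraries alone its adjusted p was 0.0114, and its log2 fold change was 1.68 without E2 library 2 and 3.19 without E2 library 3, called in both. Slfn9 was 1.30-fold higher (log2 fold change 0.36 ± 0.08, adjusted p = 0.00203). Slfn2 had 2, 4 and 1 counts against 0 in E2 (adjusted p = 0.016). Against WT, 1 of 3 tested members of E1E2 was called, Slfn8, beside 8.73% of all genes. The effect of 4-OHT in this clone was compared with that in the parent line, E1 against WT, as a difference of differences. None of the members was called (3.43% of all genes were), and the difference was 0.40 ± 0.11 on the log2 scale for Slfn9 (adjusted p = 0.0201) and 0.39 ± 1.89 for Slfn8 (adjusted p = 0.96), which is too wide to say that the steps were alike.

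Loss of G9a and Glp went with the largest change of the family among the 4 steps between related clones that were tested. In E1E2 G9Gl against E1E2, 6 tested members were called higher, beside 21.6% of all genes called in either direction. Slfn1, Slfn2, Slfn3 and Slfn4 entered the test only through groups where they are higher than in E1E2, so this count is not read against that share. Slfn2, at 2, 4 and 1 counts in E1E2, had 4052, 3942 and 3228 counts in E1E2 G9Gl, or 173 ± 7.45 CPM (SD, n = 3), a log2 fold change of 10.74 ± 0.18 (adjusted p = 3.98e-21), or 11.38 without E1E2 library 2. Per kb of exon it was the most abundant member there, at 104 ± 4.48 CPM per kb, above Slfn9 at 32.6 ± 0.577. Slfn2 made up 42.1% to 44.0% of all counts on the family in these libraries.

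The members of intermediate length followed. Slfn3 had 0, 0 and 2 counts in E1E2 and 171, 170 and 129 in E1E2 G9Gl, a ratio of 264 (72.8 to 2190, adjusted p = 1e-12). Slfn4 had the same 0, 0 and 2 counts in E1E2 and 99, 74 and 73 in E1E2 G9Gl, a ratio of 138 (37.9 to 1149, adjusted p = 1.73e-11). Both E1E2 values rest on library 3, without which the fitted log2 fold change went from 7.81 to 10.52 for Slfn3 and from 6.87 to 9.59 for Slfn4, values that depend on the prior count, with both still called. Slfn1 had no count in E1E2 and 48, 54 and 43 in E1E2 G9Gl, at least 54.4-fold higher (adjusted p = 2.96e-07). No library of E1E2 G9Gl came near those of E1E2 for any of these genes.

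Of the long members, Slfn8 and Slfn9 started from a higher level than Slfn1, Slfn2, Slfn3 and Slfn4 and changed by smaller folds. Slfn8 went from 2.63 ± 0.652 to 19.4 ± 1.66 CPM (log2 fold change 2.88 ± 0.28, adjusted p = 4.41e-09). Slfn9 went from 83.3 ± 3.52 to 195 ± 3.44 CPM (log2 fold change 1.22 ± 0.08, adjusted p = 4.47e-12). Slfn5 had 11, 6 and 5 counts in E1E2 G9Gl against 1, 1 and 0, a ratio of 12.4 (3.04 to 109) without a test. Against WT, 5 tested members of E1E2 G9Gl were called higher, beside 25.2% of all genes. A like limit of entry holds for Slfn1, Slfn2, Slfn3 and Slfn8 among them. These comparisons share the E1E2 G9Gl libraries, so they do not support each other.

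**Figure D2:**
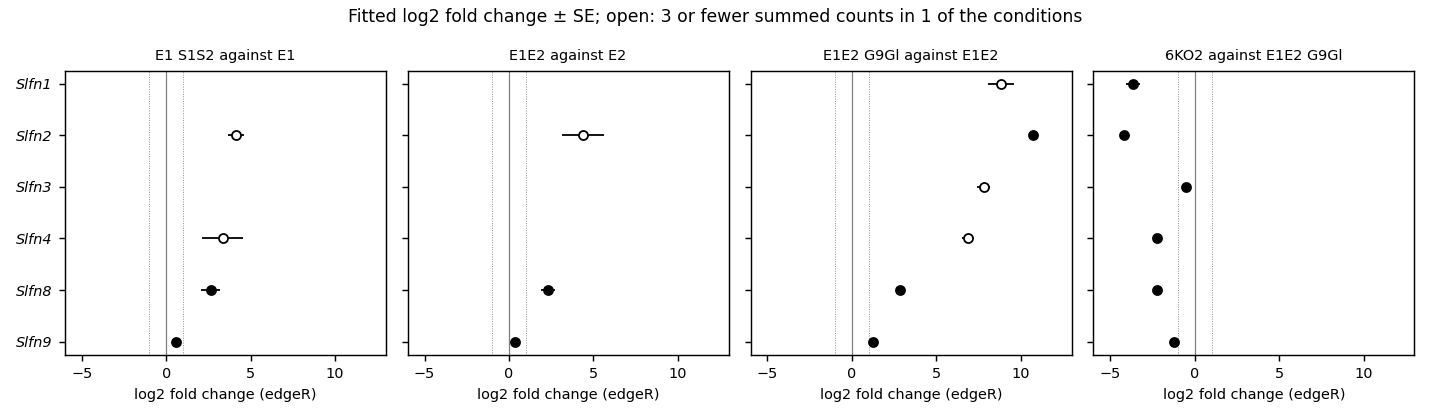
Fitted log2 fold change (edgeR) with its SE for 6 Schlafen members in the 4 steps that use neither WT nor 6KO1. Open circles mark members with 3 or fewer summed counts in 1 of the conditions, whose fitted value depends on the prior count; members with 3 or fewer in both are not drawn, and dotted lines are at -1 and 1. All members are right of 1 when G9a and Glp are lost and all are left of 0 when Suv39h1 and Suv39h2 are lost from the same clone.

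Mutating Suv39h1 and Suv39h2 in the E1E2 G9Gl clone was accompanied by lower, not higher, Schlafen transcripts. In 6KO2 against E1E2 G9Gl, 5 of 6 tested members were called, all lower, beside 16.3% of all genes. Slfn1 entered the test only through groups where it is higher than in 6KO2, so this count is not read against that share. Slfn2 fell to 212, 220 and 223 counts, or 9.44 ± 0.684 CPM (log2 fold change -4.19 ± 0.10, adjusted p = 6.49e-18). Slfn1 fell to 7, 0 and 5 counts (log2 fold change -3.66 ± 0.41, adjusted p = 5.19e-06; -4.27 without 6KO2 library 1). Slfn4 fell to 17, 19 and 19 counts, or 0.794 ± 0.0872 CPM (log2 fold change -2.25 ± 0.19, adjusted p = 3.03e-08).

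Among the long members, Slfn8 fell to 112, 42 and 139 counts (log2 fold change -2.21 ± 0.26, adjusted p = 2.12e-07), with library 2 the lowest. Slfn9 fell to 83.1 ± 11.1 CPM (log2 fold change -1.23 ± 0.08, adjusted p = 9.22e-12), a level that overlaps those of E1 S1S2 (83.8 ± 5.0 CPM) and E1E2 (83.3 ± 3.52 CPM). Slfn5 had 1, 0 and 3 counts, a ratio of 0.17 (0.0425 to 0.5) without a test. Slfn3 was the exception among those tested, with 126, 96 and 127 counts, a log2 fold change of -0.53 ± 0.17 that was not called (adjusted p = 0.0135). Against WT, 4 of 5 tested members of 6KO2 were called higher, beside 20.7% of all genes. They were Slfn1, Slfn2, Slfn3 and Slfn8, whose entry depended on groups where they are higher than in WT, so the count is not read against that share. The call of Slfn1 rests on 12 counts against 0, and it was lost with each of the WT libraries or 6KO2 library 1 or 3 left out (adjusted p 0.0131 to 0.0278).

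Mutation of Suv39h1 and Suv39h2, made separately in the 2 series of clones, thus went with opposite changes of Slfn2, Slfn8 and Slfn9. The rise of Slfn9 in the first series was under the fold that a call needs. A test of the difference between the steps, chosen after the values were seen, called 4 members, Slfn2, Slfn4, Slfn8 and Slfn9, beside 16.5% of all genes. For Slfn9, with 4409 or more summed counts in each of the 4 conditions, the log2 change was 0.61 from E1 to E1 S1S2 and -1.23 from E1E2 G9Gl to 6KO2, a difference of -1.84 ± 0.11 (adjusted p = 6.02e-12). For Slfn8 the difference was -4.84 ± 0.60 (adjusted p = 4.73e-07). Each step is a single pair of clones.

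Both 6KO conditions lack the same enzymes, but their Schlafen levels were far apart. Given as values without a test, 6KO1 was above 6KO2 by a ratio of 46.3 (35.5 to 61.7) for Slfn4, 11.9 (6.64 to 23.5) for Slfn1, 4.32 (3.81 to 4.91) for Slfn8, 4.18 (3.84 to 4.55) for Slfn2 and 2.31 (2.24 to 2.38) for Slfn9. Slfn3 went the other way, with a ratio of 0.119 (0.0866 to 0.16) and 50 counts in 6KO1 against 349 in 6KO2. E1E2 G9Gl and 6KO1 had near-equal levels of Slfn9 (195 and 193 CPM) and Slfn8 (19.4 and 18.2 CPM), and their libraries overlapped for both. They differed for Slfn2 (173 and 39.4 CPM) and Slfn4 (3.78 and 36.7 CPM).

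Slfn4 and Slfn3 are next to each other on the same strand, and their order changed between clones. Per kb of exon, Slfn4 was 50.2, 42.2 and 78.2 times as abundant as Slfn3 in the 3 libraries of 6KO1. In E1E2 G9Gl it was Slfn3 that was higher, by 2.01, 2.67 and 2.05 times, and in 6KO2 by 8.61, 5.87 and 7.77 times. The ratio of Slfn4 to Slfn3 was lower in every 6KO2 library than in every E1E2 G9Gl library. The mean difference was -1.72 on the log2 scale, with p = 0.1 in a two-sided exact permutation test, the smallest p that 3 against 3 libraries allow.

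**Figure D3:**
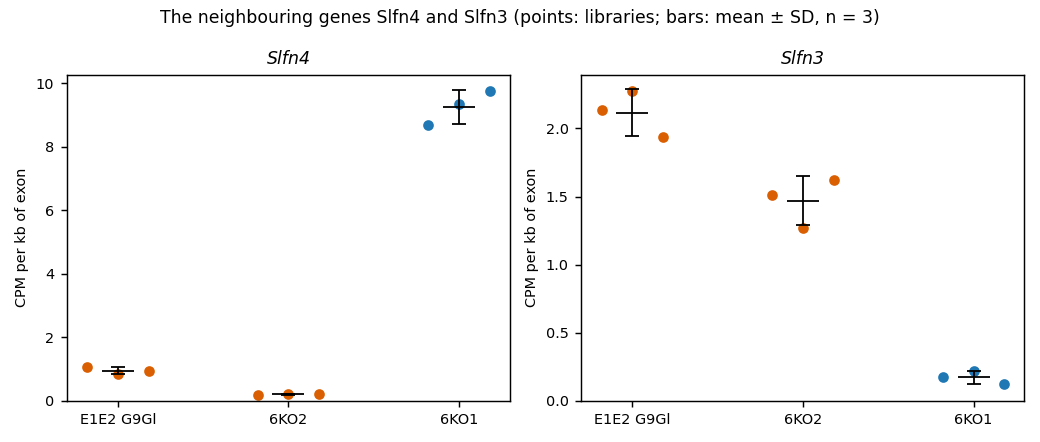
Levels of the adjacent genes Slfn4 (left) and Slfn3 (right) in E1E2 G9Gl, 6KO2 and 6KO1, as CPM per kb of exon on linear axes from 0. Points are libraries and bars are the mean ± SD of 3. Slfn4 is highest in 6KO1 (9.26 ± 0.532) and Slfn3 is lowest there (0.173 ± 0.0486).

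Slfn9 and Slfn8, the pair with similar promoters, differed least where both were highest. Per kb of exon, Slfn9 exceeded Slfn8 by 847, 1152 and 481 times in the WT libraries, which had 1 or 2 Slfn8 counts each. It was 81.2, 558 and 44.5 times in the E2 libraries, so that E2 library 2 overlaps WT. The excess was 162 to 215 times in E1, 40.5 to 45.9 in E1 S1S2 and 18.6 to 29.8 in E1E2. It was 6.60 to 7.84 times in 6KO1, 6.16 to 7.52 in E1E2 G9Gl and 10.5 to 25.7 in 6KO2. The pseudogene Slfn10-ps, their neighbour, was at 36, 44 and 31 counts in WT, 4, 3 and 1 in E2 and 7, 10 and 6 in E1E2. It was lower than WT in E2 (log2 fold change -3.62 ± 0.29, adjusted p = 1.28e-09) and in E1E2 (-2.18 ± 0.23, adjusted p = 6.95e-08). In E1E2 G9Gl it reached 638, 673 and 585 counts, a log2 fold change of 6.51 ± 0.16 over E1E2 (adjusted p = 9.26e-20), and in 6KO2 it fell to 72, 61 and 77.

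The order of the 8 conditions was not the same for all members. Slfn9 and Slfn8 were highest in E1E2 G9Gl and 6KO1, which overlapped, and Slfn9 then had E1 S1S2, E1E2 and 6KO2 overlapping each other, followed by E2, WT and E1, of which WT overlapped both others and E2 lay above E1. Slfn2 was ordered E1E2 G9Gl, 6KO1, 6KO2, E1 S1S2 without overlap, with the other 4 conditions at 7 summed counts or fewer. For Slfn4 the order was 6KO1, E1E2 G9Gl, 6KO2, again without overlap, and for Slfn3 it was E1E2 G9Gl, 6KO2, 6KO1.

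Interferon-induced genes, a fixed list of 28 of which all were tested, moved in several of the same steps. In E1 S1S2 against E1, 23 of 28 were called higher and 0 lower, beside 4.31% and 3.74% of all genes, with a median log2 fold change of 1.55 (all genes -0.01). In E1E2 against E2, 25 were higher (2.32% of all genes) with a median of 1.93. In E1E2 G9Gl against E1E2, 14 were higher and 4 lower (14.8% and 6.78% of all genes) with a median of 1.03. In 6KO2 against E1E2 G9Gl, 18 were lower and 1 higher (9.12% and 7.19% of all genes) with a median of -1.56. Some listed genes passed the filter on low counts only through groups where they are higher. Iigp1 and Oas1a, named after their values were seen, were at 0.125 and 0.2035 CPM in E2. These counts are therefore not read against the shares of all genes. The list was fixed with earlier results of these data known, so its direction is not independent evidence.

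The genes of the list with the highest levels were Ifit1 and Ifit2, which encode proteins that bind foreign RNA or block its translation, and Bst2, which encodes the surface protein tetherin. The level of Ifit1 was 30.8 ± 8.20 CPM in WT and 123 ± 0.33 CPM in E1 S1S2. It was 265 ± 21.3 CPM in the 6KO1 libraries and 67.5 ± 14.5 CPM in those of 6KO2. From E1E2 to E1E2 G9Gl it went from 128 ± 15.2 to 91.6 ± 1.43 CPM (log2 fold change -0.48, adjusted p = 0.01005, not called). Ifit2 was at 126 ± 13.4 and 129 ± 1.31 CPM (log2 fold change 0.04, adjusted p = 0.819), and Bst2 rose from 88.3 ± 2.58 to 192 ± 6.83 CPM (log2 fold change 1.12, adjusted p = 1.57e-08). Zbp1, a sensor of Z-form nucleic acid and the 1 listed gene called higher in 6KO2 against E1E2 G9Gl, is named after its values were seen (0.6 ± 0.153 to 2.03 ± 0.699 CPM). In E1E2 G9Gl against E1E2, with 14 listed genes called higher and 4 lower, Zbp1 fell the most (log2 fold change -2.92, adjusted p = 2.93e-09). Oas2, also named after its values were seen, rose the most (5.05, adjusted p = 2.06e-15). From E1E2 G9Gl to 6KO2 it changed by -5.18 (adjusted p = 5.25e-15).

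The libraries of E2 and of 6KO2 spread widely, both for the summed level of the list and for Slfn8. In 6KO2 the summed level was 728, 544 and 852 CPM in libraries 1 to 3, and Slfn8 was 4.58, 1.90 and 6.07 CPM. In E2 the sum was 521, 326 and 507 CPM, and Slfn8 was 0.564, 0.0709 and 1.08 CPM. Library 2 was the lowest of both measures in both conditions, and of Slfn9 too (71.0 CPM in 6KO2 and 57.7 CPM in E2). Slfn3, at 5.15, 4.34 and 5.54 CPM in 6KO2, had the same order there, and Slfn4, at 0.695, 0.858 and 0.829 CPM, did not.

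**Figure D4:**
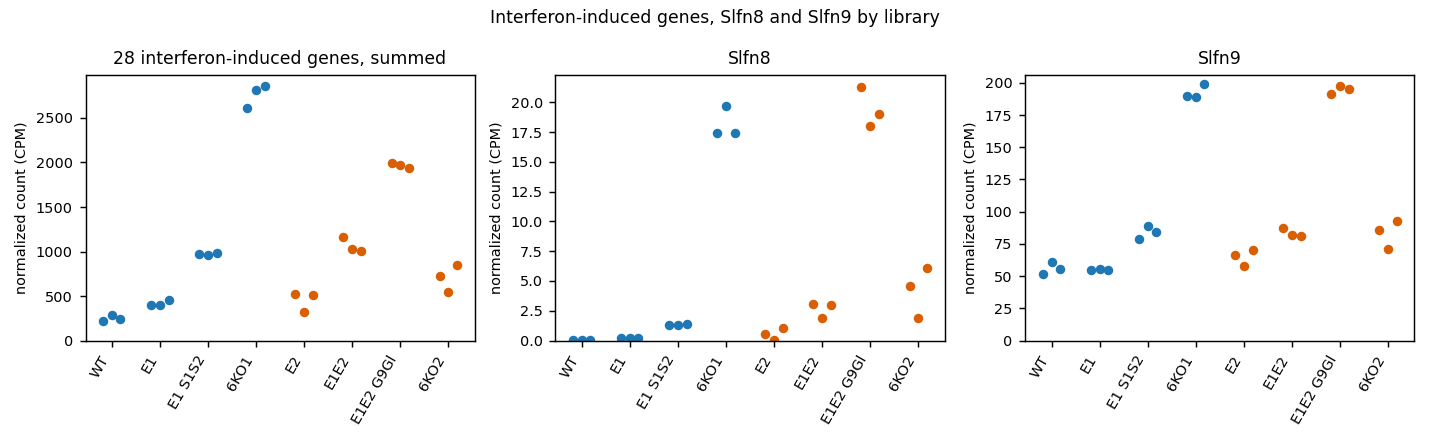
Summed CPM of 28 interferon-induced genes (left) and CPM of Slfn8 (middle) and Slfn9 (right) in each of the 24 libraries, by condition, on linear axes from 0. Points are libraries, blue for the first series of clones and orange for the second. The list sum is highest in 6KO1 (2615 to 2856 CPM), whereas Slfn8 and Slfn9 overlap between 6KO1 and E1E2 G9Gl, and library 2 is the lowest of E2 and of 6KO2 in all panels.

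Transcripts of interferons themselves were at the detection limit. Of 9 ligand genes, none passed the filter on low counts, and 5, Ifna5, Ifnk, Ifnl2, Ifnl3 and Ifng, had no count in any library. Ifnb1, encoding interferon beta, had no count in WT, E1, E1 S1S2 and E2 and at most 7 counts in a library, with 0.182 ± 0.103 CPM in 6KO1 and 0.0607 ± 0.0214 in E1E2 G9Gl. Ifna2 and Ifne were the other ligands with the highest means, at 2 and 4 counts at most.

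Genes of type I interferon signalling were expressed in all conditions. The receptor chain Ifnar1 was at 53.8 ± 4.17 CPM in WT and 77.7 ± 2.95 in E1E2 G9Gl, and the kinase Jak1 at 139 ± 8.10 and 190 ± 5.62. Irf1, a transcription factor, went from 148 ± 22.0 CPM in E1E2 to 65.5 ± 3.13 in E1E2 G9Gl (log2 fold change -1.17, adjusted p = 2.26e-08).

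Since Schlafen genes are known from blood cells, markers of such cells were read beside them. Fibroblast markers, 10 genes, summed to 2887 to 7723 CPM in the libraries, most of it from collagens and Vim, with Vim, Col1a1 and Col1a2 the highest. Other markers were low in some conditions, and Lum was at 0 in 6 of 8. Thy1 was at 7.86 CPM in WT, 16.3 in E1E2 G9Gl and 0.0116 in 6KO1. Dcn was at 1.43, 0.0816 and 0.0229 CPM in these conditions, and Pdgfra at 5.09, 0.542 and 0.123. In E1E2 G9Gl against E1E2, 3 of 9 tested fibroblast markers were called higher and 2 lower, beside 14.8% and 6.78% of all genes. The summed level was lowest in 6KO1, at 2887 to 3140 CPM. The 10 myeloid markers summed to 32.4 to 35.3 CPM in E1E2 G9Gl and 26.3 to 29.0 CPM in 6KO1, the conditions with the highest Schlafen levels, and to 5.46 to 11.5 CPM in the others. This came from few of them. Itgam was at 20.1 ± 0.434 CPM in E1E2 G9Gl and 2.45 ± 0.164 in 6KO1, and Cd68 at 3.4 ± 0.573 and 19.4 ± 1.25, while Cd14 was at 1.18 ± 0.242 and 3.55 ± 0.34. In E1E2 G9Gl against E1E2, 3 of 6 tested myeloid markers were called higher and 1 lower, beside 14.8% and 6.78% of all genes. Itgam and Lyz2 entered the test only through groups where they are high, so the count is not read against those shares. Besides Itgam, the higher ones were Lyz2, at 6.005 ± 0.441 CPM in E1E2 G9Gl (adjusted p = 4.08e-11), and Ly6g, at 3.002 ± 0.307 CPM (adjusted p = 3.13e-08). The macrophage marker Adgre1 had no count in any library, Csf1r had none in E1E2 G9Gl, and Tyrobp had 1 count in 6KO1 and none elsewhere.

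Lymphoid markers, 9 genes, summed to 3.93 to 4.55 CPM in E1E2 G9Gl and to at most 1.72 CPM in any other library. Ptprc was at 1.89 ± 0.104 CPM and Cd3e at 1.66 ± 0.208 in E1E2 G9Gl, while Cd2 had no count in any library and Cd3g, Cd4 and Cd8a had none in E1E2 G9Gl. Lck, the third of the highest lymphoid markers, was highest in WT (1.21 ± 0.316 CPM). The part of these marker genes in the Schlafen result was not tested.

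Of 29 other genes that start within 250 kb of the members, 17 were tested. In E1E2 G9Gl against E1E2, 3 were called higher and 0 lower (14.8% and 6.78% of all genes), with a median log2 fold change of 0.01. They were AI662270 and Gm11427, described below, and Gm11425 (log2 fold change 4.06, adjusted p = 2.9e-12). Gm11425 starts inside the cluster and is named after its values were seen. AI662270 and Gm11427 entered the test only through groups where they are high, so counts of neighbours are not read against these shares. In 6KO2 against E1E2 G9Gl, 1 was higher and 1 lower (7.19% and 9.12% of all genes), with a median of 0.09. The lower gene was again Gm11425 (log2 fold change -2.64, adjusted p = 5.13e-10). The higher gene was Rasl10b (1.19, adjusted p = 2.35e-05), also named after its values were seen. Against WT, 5 were higher and 2 lower in E1E2 G9Gl (16.8% and 8.41% of all genes). The nearest tested gene before the cluster was Nle1, a gene of ribosome assembly that ends 42937 bases from Slfn5. Its mean level was 30.9 CPM in E1E2 and 15.8 CPM in E1E2 G9Gl, with a log2 fold change of -0.97 ± 0.10 (adjusted p = 8.42e-09), under the fold that a call needs.

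The nearest tested gene beyond the last member was AI662270, annotated as a processed transcript, which starts 8421 bases after Slfn3. It had 1 count over the E1E2 libraries and 1005 to 1229 in each of E1E2 G9Gl, and its mean levels in 6KO1, E1E2 G9Gl and 6KO2 were 76.4 ± 5.42, 52.8 ± 1.70 and 36.1 ± 0.527 CPM. In WT, E1, E1 S1S2, E2 and E1E2 it summed to 4 counts or fewer. From E1E2 G9Gl to 6KO2 it changed by -0.55 ± 0.10 (log2, adjusted p = 5.3e-05), beside -0.53 ± 0.17 for its neighbour Slfn3. Among these 3 conditions, AI662270 was highest in 6KO1 and Slfn3 was lowest there. The pseudogene Gm11427, which overlaps it and is named after its values were seen, had summed counts of 1603, 976 and 742 in these conditions and 0 elsewhere.

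The tested genes whose log2 CPM followed each member most closely over the 24 libraries are given as a description, since these libraries share clones and the 3 of a condition are alike. For Slfn9 they were Herc6 (Pearson r = 0.983), Oas2 (0.977) and Trim30d (0.977), and for Slfn8 Gm43302 (0.988), Gbp6 (0.986) and Ddx58 (0.986). For Slfn4 they were Trim30c (0.987), Gm12569 (0.983) and Gm26644 (0.983). For Slfn1 they were Mir142hg (0.988), Pilrb1 (0.983) and Muc20 (0.981), and for Slfn2 Srgap3 (0.987), Mttp (0.983) and Gm37924 (0.982). For Slfn3 they were Vmn2r12 (0.992), Cntnap2 (0.991) and Gm23704 (0.989). Among the members, r was highest for Slfn1 with Slfn9 (0.940) and lowest for Slfn3 with Slfn9 (0.667). Slfn3 had r of 0.701 with its neighbour Slfn4.

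Related genes can exchange reads. Of the stretches of 75 bases, the read length, in annotated transcripts, 6.99% of those of Slfn8 and 5.90% of those of Slfn9 occur in another of Slfn8, Slfn9 and Slfn10-ps. For Slfn4 the share was 1.78%, with Slfn2 and Slfn3, for Slfn2 1.70%, for Slfn3 1.32% and for Slfn1 0. Outside the family, 1.34% of Slfn4 stretches occur in Gm11427, and 5.46% of Slfn3 and 8.22% of Slfn5 stretches occur in other transcripts. Single counts of Slfn8 in libraries with over 1000 Slfn9 counts are therefore uncertain. The exons of Slfn5 overlap its antisense gene Slfn5os by 559 bases. The libraries are stranded, but the strand setting of the counting is not given in the sources used here, and Slfn5os had 2 counts in all 24 libraries.

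The remaining Schlafen genes were low throughout. Slfn14 had at most 3 counts over any condition. Slfnl1, a Schlafen-like gene on chromosome 4, summed to between 13 and 28 counts per condition. It had 20 counts in E1E2 and 16 in E1E2 G9Gl, a ratio of 0.90 (0.436 to 1.83), where the members of the cluster rose.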

How the data were processed

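RNA-seq of 24 MEF cultures, 3 in each of 8 conditions, was analysed from the deposited table. According to the paper and the submitters' processing notes, the authors trimmed paired, stranded reads (75 bases) with cutadapt 1.8.1, aligned them to GRCm38 with STAR 2.5.2b and counted them with TEtranscripts. They deposited whole-number counts per gene and repeat element without normalization. The table has 47937 genes, 1445 repeat elements, which were not used, and 1 malformed row that was left out. Positions come from GENCODE for GRCm38 and promoter windows from RefSeq (GRCm38.p6); 7 of 7 members matched.

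From the counts, filterByExpr kept 18565 genes. The 24 libraries were scaled by TMM and fitted jointly, with a term for each condition, in edgeR 4.0.16 (with limma 3.58.1 under R 4.3.3). Its two-sided quasi-likelihood test was made for 10 comparisons, each adjusted by Benjamini-Hochberg over the tested genes. Calls required a 2-fold difference or more and an adjusted p not above 0.01. The SE of a log2 fold change is its size over the root of the F statistic. Ratios are of summed normalized counts with exact 95% conditional binomial intervals. Fits were tested on simulated data. Replicates differed by more than counting error (chi-square per gene 2.28 to 65.2). Alternatives were DESeq2 1.42.0, RLE factors, no low-count filter, only the 6 libraries compared, a replicate block, no fold minimum and each library left out.

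Replicate numbers in the labels gave the block. Deviations of same-numbered libraries correlated at 0.14 to 0.18 in all 3 pairs of E1 S1S2 and WT, so the numbers were taken to pair these samples. In the other comparisons they did not all exceed 0.1. The block changed no call in E1 S1S2 against WT.

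Members, lists and tests were chosen with earlier results of these data known. Named genes are the members and other genes with a Slfn symbol, the 3 genes of each list with the highest mean CPM, the nearest tested gene on each side of the cluster, and the 3 genes most correlated with each member (log2 CPM, prior count 2); markers at 0, markers called and other names marked so were named after their values were seen. Promoter alignment used Biopython 1.88, the permutation test scipy 1.17.1, and figures matplotlib 3.10.9. One item of the signalling list and the counts that rest on it are not reported here.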

Additional observations from a re-analysis of the deposited data

Results flagged for a closer look

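The change that went with mutation of Suv39h1 and Suv39h2 differed between the clone series for 4 of the 6 members tested, by a difference of differences in the same edgeR fit that was chosen after the values were seen. From E1 to E1 S1S2 the log2 fold change was 4.13 for Slfn2, 2.63 for Slfn8 and 0.61 for Slfn9, and from E1E2 G9Gl to 6KO2 it was -4.19, -2.21 and -1.23. The second step minus the first was -8.32 ± 0.41 (SE) for Slfn2 (adjusted p = 8.12e-13), -4.84 ± 0.60 for Slfn8 (adjusted p = 4.73e-07) and -1.84 ± 0.11 for Slfn9 (adjusted p = 6.02e-12). For Slfn4 it was -5.60 ± 1.29 (adjusted p = 0.00166), a fitted value that depends on the prior count because E1 had no Slfn4 count. E1 had only 3 Slfn2 counts in all, so the size for Slfn2 is uncertain as well. For Slfn3 the difference was -2.24 ± 1.68 (adjusted p = 0.286), and no value could be had for Slfn1, which had no count in E1 and E1 S1S2. Each step compares 1 clone with its parent clone, and the clone and the mutation cannot be told apart.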

How the results depend on the processing

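Over the alternatives, 112 recomputed counts of called members stayed within 1.5 times the reported count and 8 did not. In E2 against WT the count of 0 became 1, Slfn8, with RLE factors, without the low-count filter, with DESeq2 and with the replicate block, and it ranged from 0 to 1 with each library left out (1 without E2 library 2). In E1E2 against WT and in E1E2 against E2 the count of 1 became 2 without a fold minimum, since Slfn9 then counts, and in E1E2 against E2 it became 0 in the fit of 6 libraries. In 6KO2 against WT the replicate block left 3 of 4 members called, without Slfn1 (adjusted p = 0.0124). It changed no other call of a member, the difference between the Suv39h steps included. Outside E1 S1S2 against WT, same-numbered libraries deviated together at -0.594 to 0.56 (Pearson's r across genes), so there the libraries share only a number. Of the recomputed log2 fold changes of single members, 410 kept direction and call, 7 lost a call, 5 gained one and 1 reversed. The last is Slfn9 in E1 against WT, at -0.031 with all libraries, which ranged from -0.083 to 0.028 with each library left out (0.028 without WT library 2) and was never called. The lower bound for Slfn4 in 6KO1 against WT was 9.87 on the log2 scale and 9.22 to 9.92 with each library left out, since a smaller WT group has a higher floor. In 6KO1 against WT, 15 recomputed member values moved by more than the spread between replicates, Slfn4 included and each on leaving out a WT library, with Slfn2 the most (11.56 to 9.33 without WT library 2). Depth limits what can be said of Slfn1, Slfn3, Slfn4 and Slfn5 outside 6KO1, E1E2 G9Gl and 6KO2, where they had 0 to 9 counts per condition.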
